A study of Mus musculus with 9 samples.

Results

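The transcripts of 9 genes that encode transcription factors of the macrophage lineage were followed on 9 mouse arrays: Spi1, which encodes PU.1, Cebpa, Cebpb and Cebpd of the C/EBP family, Maf, Mef2c, Runx1, Nr1h3, which encodes the liver X receptor LXRα, and Klf4. Their probes were found by gene name among 36483 names on the array. Of the 9, 8 were found under their present symbol with 11 probes, and Spi1 under its older name Sfpi1 with 1 probe whose accession matches Spi1, which gives 12 probes of 55681 on the array. All 9 arrays carried Cy3-labelled total RNA of macrophages from C57BL/6J mice, 3 arrays in each of 3 groups. The controls were macrophages of the peritoneal exudate (PEC). The other groups were tumour-associated macrophages (TAM) of a fibrosarcoma, separated into F4/80high and F4/80low cells. F4/80 is a surface protein of mature mouse macrophages, encoded by Adgre1. No gene was deleted and no agent is named for any group, and the labels give no age, no other marker of the sort and no way in which the exudate was raised. TAM and PEC differ in tissue of origin as well as in the tumour, and these cannot be told apart.

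PU.1 is an ETS factor that commits progenitors to the myeloid fate and opens macrophage enhancers, where it binds beside C/EBP and RUNX factors. C/EBPα drives the step from progenitor to granulocyte and monocyte, C/EBPβ carries macrophage activation, and C/EBPδ is an inducible member that amplifies responses to Toll-like receptors. c-Maf restrains self-renewal of mature macrophages, LXRα answers to oxysterols by inducing genes of cholesterol efflux, and KLF4 is a factor of monocyte differentiation. All are background from general knowledge, not results of these arrays.

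Levels are log2 intensities minus the 75th percentile of the same array, so 0 is the 75th percentile and 1 unit is a doubling. Levels of different probes depend on the probe and were not set against each other. On each array 36.1% to 38.3% of the 59305 non-control spots were well above background. PEC replicate 1 lay on the slide of all 6 TAM arrays and PEC replicates 2 and 3 on another slide. Each comparison with PEC was therefore also run with the slide as a block and within slide 1. Both of these fits take the difference from PEC replicate 1 alone and so give the same value. They cannot tell the slide from the scatter among PEC arrays. The replicates are called biological in the series, with no word on separate animals. The p-values therefore rest on the scatter of these samples alone, and some of it may be technical. Csf1r, the receptor of the macrophage growth factor and a defining macrophage gene, stood at 9.26 ± 0.05 in PEC, 8.79 ± 0.36 in F4/80high and 8.89 ± 0.17 in F4/80low TAM (mean ± SD, n = 3) and passed no comparison. Adgre1 stood at 5.88 ± 0.25 in PEC, 5.94 ± 0.26 in F4/80high TAM and 2.89 ± 0.50 in F4/80low TAM.

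**Figure D1:**
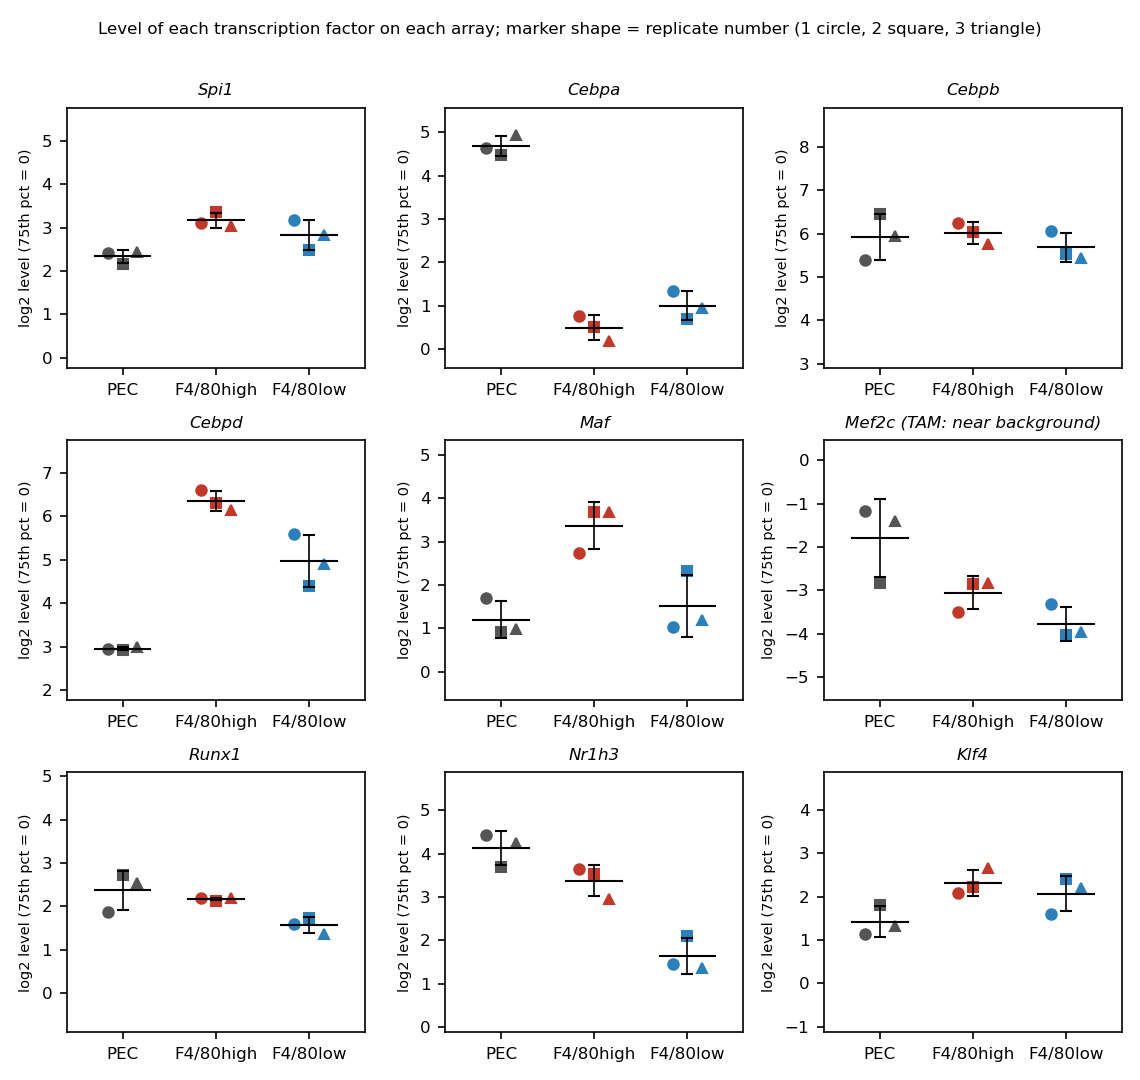
Level of each transcription factor on each of 9 arrays, in log2 units relative to the array's 75th percentile, with 1 panel per gene and the same height of axis in every panel; bars give mean and SD of 3 arrays and marker shapes give the replicate number. Cebpa fell from 4.68 in PEC to 0.49 and 1.00 in TAM, Cebpd rose from 2.95 to 6.35 and 4.97, and Nr1h3 was lowest in F4/80low TAM at 1.64.

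Of the 9 genes, 8 had a probe that all 3 arrays of some group measured well above background, and these were tested with limma; Mef2c did not. Cebpa fell and Cebpd rose in both TAM subsets, Maf was higher in F4/80high TAM than in either other group, and Nr1h3 was lower in F4/80low TAM than in either other group. In F4/80high TAM against PEC 5 of the 8 passed at an adjusted p of 0.05, against 53.1% of 16459 genes; 4 were higher and 1 lower, where 25% and 28% of all genes were. In F4/80low TAM against PEC 4 of the 8 passed, against 51.9%; 1 was higher and 3 lower, where 22.7% and 29.2% of all genes were. Between the TAM subsets 3 of the 8 passed, against 32.6%; all 3 were higher in F4/80high TAM, where 18.6% of all genes were higher and 14% lower. These counts lie near the share of all genes. The arrays did not overlap for 6, 5 and 4 of the 8 in the same order, against 65.2%, 59.3% and 46.7% of all genes. The median log2 difference over all genes was 0.00, −0.09 and 0.08. With arrays centred on their median in place of the 75th percentile it moved to −0.16, −0.56 and 0.40, and the share of higher genes among those past the threshold moved from 43.8% to 22.1% in F4/80low TAM against PEC and from 57.1% to 75.8% between subsets.

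**Figure D2:**
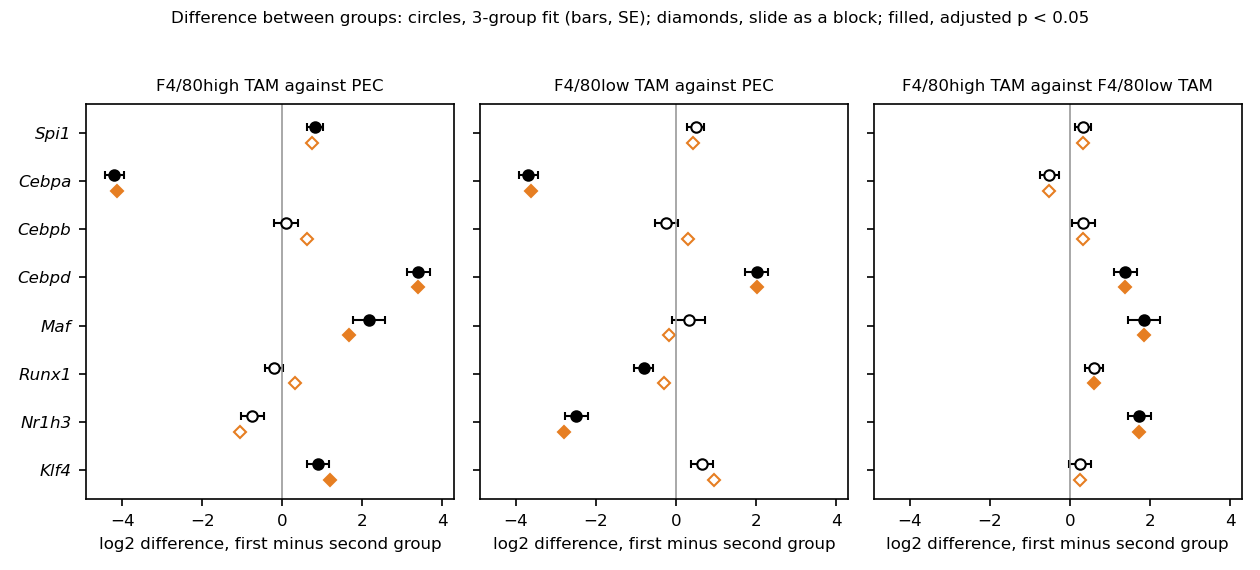
Log2 difference of the 8 tested transcription factors in each of 3 comparisons (circles with SE, all 9 arrays; diamonds, slide as a block; filled where adjusted p is below 0.05). Cebpa at −4.19 and −3.68 and Cebpd at 3.40 and 2.01 against PEC are filled in both fits, and the Spi1 and Runx1 circles filled against PEC have open diamonds.

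Spi1 was modestly higher in the F4/80high TAM. Its probe spans chr2:90939665-90953452 (mm9). The level was 2.41, 2.17 and 2.44 in PEC, 3.11, 3.35 and 3.03 in F4/80high and 3.16, 2.48 and 2.84 in F4/80low TAM. Every TAM array lay above every PEC array, and the subsets overlapped. The rise of F4/80high TAM was 1.77-fold (log2 0.82, SE 0.21, adjusted p 0.00837). F4/80low TAM stood 0.49 above PEC (SE 0.21, adjusted p 0.0742), and the subsets differed by 0.34 (adjusted p 0.251). In the slide-blocked fit the first value was 0.75 and no longer passed (adjusted p 0.0876), and with median centring it was 0.66 (adjusted p 0.0703).

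Among the close relatives and partners of PU.1, Spic, the ETS factor of red pulp macrophages that heme induces, rose in both TAM subsets. It was above background on all 6 TAM arrays and on 1 of 3 PEC arrays, so its log2 differences of 7.94 in F4/80high and 7.24 in F4/80low TAM rest on dim PEC values. They ran from 5.66 to 8.37 and from 4.92 to 7.67 over the alternatives, lowest with normexp background correction, and passed in all of them. Irf8, which pairs with PU.1 in monocytes, fell in F4/80low TAM by 1.41 (SE 0.38, adjusted p 0.0131; 1.72 with the slide as a block, adjusted p 0.0497) and stood at −0.93 (adjusted p 0.0668) in F4/80high TAM; the fall did not pass within slide 1. Spib, a relative used by B cells and plasmacytoid dendritic cells, was above background in the F4/80low TAM alone, at least 2.21-fold above PEC and at least 1.88-fold above F4/80high TAM. Irf4 passed no comparison. Of the 5 genes in this group, Spi1 included, 2 rose and none fell in F4/80high TAM, against 25% and 28% of all genes. In F4/80low TAM 2 rose and 1 fell, against 22.7% and 29.2% of all genes. Spic and Spib entered the test through TAM arrays, so they add little to these counts.

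Textbook targets of PU.1 passed in both directions. Of 24 listed and tested genes, 5 were higher and 9 lower in F4/80high TAM (median −0.50), where 25% and 28% of all genes were higher and lower, with a median of 0.00. In F4/80low TAM 3 were higher and 13 lower (median −0.92), against 22.7% and 29.2% of all genes and a median of −0.09. Between the subsets 10 were higher and 2 lower in F4/80high TAM (median 0.44), against 18.6% and 14% and a median of 0.08. Il1b, one of the higher genes against PEC and named here after its values were seen, was above background on no PEC array and entered the test through the TAM arrays. Itgb2, the integrin chain of Mac-1, fell by 2.61 (SE 0.19) and 2.05 (SE 0.19) in the F4/80high and F4/80low TAM. Cd14, the coreceptor for lipopolysaccharide, rose by 2.54 (SE 0.30) and 1.13 (SE 0.30). Several targets parted the subsets: Msr1, a scavenger receptor, stood 3.10 (SE 0.25) higher in F4/80high than in F4/80low TAM, Fcgr1, the high-affinity IgG receptor, 2.94 (SE 0.59) and Lyz2, macrophage lysozyme, 2.45 (SE 0.42). With the slide as a block 10 and 11 of the 24 passed against PEC, and the rise of Fcgr1 over PEC (2.59) was 1.94 and did not pass (adjusted p 0.108). Within slide 1 the numbers were 9 and 9.

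The C/EBP genes moved apart: Cebpa fell, Cebpd rose and Cebpb passed no comparison. Cebpa, with its probe at chr7:35906517-35906576 (mm9), was at 4.63, 4.48 and 4.94 in PEC, 0.77, 0.52 and 0.19 in F4/80high and 1.35, 0.69 and 0.96 in F4/80low TAM. No TAM array came within 3 log2 units of a PEC array, while the subsets overlapped. Cebpa was 18.3-fold lower in F4/80high TAM (log2 −4.19, SE 0.23, adjusted p 1.63e-06) and 12.9-fold lower in F4/80low TAM (−3.68, SE 0.23, adjusted p 4.64e-06). Only 156 of 16459 genes had a lower value in the first comparison and 168 in the second. The subsets differed by −0.51 (SE 0.23, adjusted p 0.129). Blocking on the slide gave differences of −4.14 and −3.63.

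Cebpd, with its probe at chr16:15888459-15888518 (mm9), went the other way. It stood at 2.95, 2.92 and 2.99 in PEC, 6.60, 6.31 and 6.14 in F4/80high and 5.60, 4.40 and 4.90 in F4/80low TAM. The 3 groups did not overlap, with PEC lowest and F4/80high TAM highest. The rise was 10.55-fold in F4/80high TAM (log2 3.40, SE 0.28, adjusted p 1.41e-05) and 4.03-fold in F4/80low TAM (2.01, SE 0.28, adjusted p 0.00041). F4/80high TAM lay 2.62-fold above F4/80low TAM (1.39, SE 0.28, adjusted p 0.00494). All 3 calls held in every alternative run.

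Cebpb, with its probe at chr2:167515828-167515887 (mm9), read 5.39, 6.45 and 5.94 in PEC, 6.26, 6.04 and 5.75 in F4/80high and 6.07, 5.53 and 5.45 in F4/80low TAM. The spread among PEC arrays covered every F4/80high and F4/80low array. The differences were 0.09 (SE 0.29, adjusted p 0.813), −0.24 (adjusted p 0.504) and 0.33 between subsets (adjusted p 0.423), and the sign of both differences from PEC changed between alternatives. That these tests missed the threshold does not show equal levels.

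The promoters of Cebpa and Cebpb are shown as the pair of family members with the most different response for which a sequence was given; RefSeq windows (GRCm38.p6) matched 6 of the 9 genes, and Spi1, Maf and Cebpd had none. Each is the 250 bases before the annotated start, with the KLF core CACCC, or GGGTG on the other strand, in capitals. The windows lie at chr7:35119043-35119292 (plus strand) and chr2:167688665-167688914 (plus strand).
Cebpa: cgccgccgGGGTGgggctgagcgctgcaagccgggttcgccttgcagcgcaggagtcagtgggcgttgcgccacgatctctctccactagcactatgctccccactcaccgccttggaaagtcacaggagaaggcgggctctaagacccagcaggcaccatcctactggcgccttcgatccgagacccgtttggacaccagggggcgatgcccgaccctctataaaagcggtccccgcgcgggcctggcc
Cebpb: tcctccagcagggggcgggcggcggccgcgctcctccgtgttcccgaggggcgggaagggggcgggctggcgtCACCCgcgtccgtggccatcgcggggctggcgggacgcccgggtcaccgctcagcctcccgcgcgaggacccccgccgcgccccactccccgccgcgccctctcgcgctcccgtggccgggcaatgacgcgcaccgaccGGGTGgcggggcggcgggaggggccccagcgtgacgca
The Cebpb window has 81.6% G and C and holds CACCC on both strands, and the Cebpa window has 66.4% and holds it once, on the other strand. CACCC is common, found in 52.0% of 32851 such windows. No window of the 6 genes held, on either strand, the PU.1 motifs GAGGAAGT or AGAGGAAG, the C/EBP motifs TTGCGCAA or TTGCNNAA, the RUNX motif TGTGGT, the longer KLF motif GGGTGTGG, the MAF motif TGCTGAC or the MEF2 motif AAAAATAG. Among all windows these are found in 2.44%, 3.67%, 0.164%, 9.56%, 14.0%, 3.20%, 3.81% and 1.39%, in the same order. TTGCGCAA is itself a case of TTGCNNAA.

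Of 7 genes of the C/EBP family, 1 rose and 3 fell in F4/80high TAM, against 25% and 28% of all genes. In F4/80low TAM 2 rose and 2 fell, against 22.7% and 29.2% of all genes. Cebpg, a partner without an activation domain, fell with Cebpa by 1.67 (SE 0.19, adjusted p 0.000101) and 1.16 (SE 0.19, adjusted p 0.00111). Ddit3, the stress-induced member CHOP, was lower in F4/80high than in F4/80low TAM by 1.13 (SE 0.33, adjusted p 0.0279) and than in PEC by 1.11 (SE 0.33, adjusted p 0.0194). The first call was lost without F4/80high replicate 1 or 3 or F4/80low replicate 2 or 3, and with median centring, normexp background correction or no filter. Cebpe, a granulocyte factor named here after its values were seen, rose by 5.46 (SE 1.25, adjusted p 0.00584) in F4/80low TAM. It stood at 3.16 (adjusted p 0.0583) in F4/80high TAM. Both sizes rest on dim PEC values, since 1 of 3 PEC arrays was above background. The F4/80low arrays also differed widely among themselves for Cebpe (2.52 ± 3.03, mean ± SD).

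More C/EBP targets were higher than lower in both subsets. Of 17 tested, 7 were higher and 2 lower in F4/80high TAM (median 1.29), and 12 were higher and 2 lower in F4/80low TAM (median 2.90). Over all genes 25% were higher and 28% lower in the first and 22.7% and 29.2% in the second, with medians of 0.00 and −0.09. Arg1, the arginase of alternative activation, rose by 3.17 (SE 0.51) in F4/80high and 2.90 in F4/80low TAM. Il1rn, the interleukin-1 receptor antagonist, rose by 2.93 (SE 0.49) in F4/80high TAM and stood at −0.01 in F4/80low TAM, with a difference between subsets of 2.94 (adjusted p 0.00193). Saa3, an acute-phase apolipoprotein, was at −3.12 (SE 0.54; not past the threshold within slide 1) and −1.70 (adjusted p 0.0253). The neutrophil granule gene Lcn2 rose by 8.67 (SE 1.02) in F4/80low TAM and by 2.74 (adjusted p 0.047) in F4/80high TAM, the second call lost in 13 alternatives. Chil3, a chitinase-like protein, rose by 7.75 (SE 0.96) in F4/80low TAM and stood at 1.11 (adjusted p 0.353) in F4/80high TAM. Hp, haptoglobin, rose by 3.13 (SE 0.86) in F4/80low TAM and stood at −1.76 (adjusted p 0.114) in F4/80high TAM. The list holds granule genes that neutrophils express at high level, and the neutrophil marker list, which shares Csf3r, Lcn2 and Ltf with it, had a mean level of 4.96 to 8.24 on the F4/80low arrays, −0.80 to 1.39 on the F4/80high and −1.100 to −0.998 on the PEC arrays. Its part in these values was not tested. Of the 17, 12 were above background on all 3 PEC arrays. The others entered the test through TAM arrays, so they add little to the count. Among these, Il6, Ptgs2 and Mpo were above background on no PEC array and Ltf on 1. Blocked on the slide, 8 and 9 of the 17 passed, and Hp did not pass (2.58, adjusted p 0.164), nor did it without PEC replicate 2.

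Maf was highest in F4/80high TAM. The probe at chr8:118227736-118227795 (mm9) read 1.69, 0.91 and 0.99 in PEC, 2.73, 3.68 and 3.67 in F4/80high and 1.02, 2.33 and 1.18 in F4/80low TAM. The F4/80high arrays lay above all others, and PEC and F4/80low arrays overlapped. F4/80high TAM stood 4.49-fold above PEC (log2 2.17, SE 0.40, adjusted p 0.00173) and 3.62-fold above F4/80low TAM (1.85, SE 0.40, adjusted p 0.00705). F4/80low TAM and PEC differed by 0.31 (SE 0.40, adjusted p 0.539). With the slide as a block the rise over PEC was 1.67 (adjusted p 0.0484), and within slide 1 alone it did not pass (adjusted p 0.0744).

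The other Maf probe, at chr8:118207273-118207332, was above background on 1 PEC, 3 F4/80high and 0 F4/80low arrays. It read −1.34, −3.22 and −2.71 in PEC, −1.49, −0.77 and −0.50 in F4/80high and −4.26, −2.10 and −2.74 in F4/80low TAM. PEC replicate 1 lay within the range of the F4/80high arrays on this probe. The fit over all probes gave 1.50 for F4/80high TAM against PEC (SE 0.61, adjusted p 0.0632), and F4/80high TAM were at least 2.95-fold above F4/80low TAM (adjusted p 0.0262). Over all 21199 kept probes 52.5%, 50.8% and 31.9% passed in the 3 comparisons.

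The small MAF proteins lack an activation domain. Maff rose by 2.13 (SE 0.51) and 1.70 (SE 0.51), and Mafk stood 1.25 (SE 0.20) higher in F4/80high than in F4/80low TAM. In F4/80low TAM the rises of Maff and Mafk (0.66) were lost with median centring and without PEC replicate 1 or 3 or F4/80low replicate 2, and that of Mafk also within slide 1 and without F4/80low replicate 3.

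Mef2c, a factor that in myeloid cells favours the monocyte fate, was dim throughout. Its probe spans chr13:83772788-83775025 (mm9). It read −1.17, −2.83 and −1.40 in PEC, −3.49, −2.85 and −2.82 in F4/80high and −3.33, −4.03 and −3.96 in F4/80low TAM. It was well above background on 2 of 3 PEC arrays and on 0 of 6 TAM arrays, so no fold is given. With no filter on dim probes it entered the test and passed in F4/80low TAM against PEC, where all 3 arrays were below background. Its relative Mef2a rose, by 3.07 (SE 0.36, adjusted p 0.000108) in F4/80high and 1.42 (SE 0.36, adjusted p 0.00955) in F4/80low TAM. The rise depended on the probe: the mean over all kept Mef2a probes gave 1.096 and 0.25, and with the slide as a block the second value was 0.64 (adjusted p 0.228). Mef2d fell by 0.96 (SE 0.17, adjusted p 0.00117) in F4/80high TAM and by 0.48 (adjusted p 0.0378) in F4/80low TAM, where the call was lost in 12 of 20 alternatives, the slide block among them.

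Runx1 was modestly lower in F4/80low TAM than in PEC on both probes, and on the first the call was lost in several alternatives. The 2 probes did not give the same call for F4/80high TAM. The probe at chr16:92605785-92605844 (mm9) read 1.87, 2.72 and 2.54 in PEC, 2.19, 2.13 and 2.19 in F4/80high and 1.60, 1.74 and 1.36 in F4/80low TAM. The F4/80low arrays were below all others, and the F4/80high arrays lay within the PEC range. F4/80low TAM were 1.75-fold lower than PEC (log2 −0.81, SE 0.23, adjusted p 0.0161), F4/80high TAM stood at −0.20 (adjusted p 0.478) and the subsets differed by 0.61 (adjusted p 0.0738). The fall was lost with the slide as a block (−0.30, adjusted p 0.342), without PEC replicate 2 (−0.64) or 3 (−0.73), and without F4/80low replicate 3 (−0.71). In the slide-blocked fit the F4/80high difference turned to 0.31 and that between subsets passed (adjusted p 0.02).

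The other Runx1 probe, at chr16:92604413-92604472, read 1.99, 2.23 and 2.48 in PEC, 1.63, 1.34 and 1.43 in F4/80high and 1.097, 1.06 and 0.97 in F4/80low TAM. On this probe the 3 groups did not overlap, with PEC highest and F4/80low TAM lowest. It gave −0.77 (SE 0.18, adjusted p 0.00568) for F4/80high and −1.19 (SE 0.18, adjusted p 0.000595) for F4/80low TAM against PEC, and 0.42 (adjusted p 0.1) between subsets. Both probes put F4/80low TAM below PEC at the threshold, and this probe F4/80high TAM as well. Runx3, a relative used by cytotoxic lymphocytes and some macrophages, rose by 0.88 (SE 0.30, adjusted p 0.0329) and 0.96 (SE 0.30, adjusted p 0.0247). The first was lost without PEC replicate 1 or 3 or any 1 of the F4/80high arrays, the second without PEC replicate 1 or 3 or F4/80low replicate 2, and both with median centring, with quantile normalization and within slide 1. Cbfb, the partner that all RUNX proteins need to bind DNA, fell by 0.52 (SE 0.19, adjusted p 0.0418) in F4/80low TAM, lost with the slide as a block (−0.54, adjusted p 0.16) and without any 1 PEC array or F4/80low replicate 2 or 3.

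Nr1h3 was lower in F4/80low TAM than in PEC and in F4/80high TAM. The probe at chr2:91024250-91024309 (mm9) read 4.44, 3.69 and 4.25 in PEC, 3.64, 3.52 and 2.97 in F4/80high and 1.47, 2.11 and 1.35 in F4/80low TAM. The 3 groups did not overlap, and the F4/80low arrays stood well apart from the others. F4/80low TAM were 5.61-fold below PEC (log2 −2.49, SE 0.29, adjusted p 0.000143). They also lay 3.33-fold under the F4/80high cells (log2 1.73 higher in F4/80high, SE 0.29, adjusted p 0.00182). F4/80high TAM stood 0.75 below PEC (SE 0.29, adjusted p 0.0517), and this passed in 8 of 21 alternatives, with adjusted p from 0.00492 to 0.168 over all.

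The other Nr1h3 probe, at chr2:91024345-91024404, read 3.94, 3.17 and 3.78 in PEC, 2.90, 2.85 and 2.22 in F4/80high and 0.96, 1.35 and 0.70 in F4/80low TAM. It gave the same order of groups with no overlap. Here F4/80high TAM passed against PEC, at −0.98 (SE 0.28, adjusted p 0.0162). F4/80low TAM were 6.19-fold below PEC (−2.63, SE 0.28, adjusted p 8.97e-05), and the subsets differed by 1.65 (adjusted p 0.00213). The slide-blocked fit of the first probe gave −1.07 (adjusted p 0.0734) and −2.80 (adjusted p 0.00188).

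The 250 bases before an Nr1h3 start are shown because Nr1h3 parted the TAM subsets most among the genes with a sequence given; they lie at chr2:91195117-91195366 (GRCm38.p6, minus strand), with CACCC in capitals.
Nr1h3: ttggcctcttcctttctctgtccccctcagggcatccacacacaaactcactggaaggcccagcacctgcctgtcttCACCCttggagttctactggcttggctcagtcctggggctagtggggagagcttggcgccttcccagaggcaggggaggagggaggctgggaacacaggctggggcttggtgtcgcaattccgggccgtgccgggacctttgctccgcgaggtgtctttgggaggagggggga
The window held neither the LXR core motif AGGTCA, found in 14.0% of all windows, nor any of the other motifs searched apart from CACCC. A second Nr1h3 window, from another start, holds CACCC on the other strand 43 and 49 bases before that start. Of the 6 genes, only Mef2c windows held AGGTCA.

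Nr1h2, which encodes the ubiquitous LXRβ, passed no comparison, at 5.03 in PEC, 4.93 in F4/80high and 4.83 in F4/80low TAM. Among the RXR partners of LXR, Rxra was above background in PEC and on none of the F4/80high arrays (at least 1.88-fold lower, adjusted p 0.0057), a call lost with normexp background correction. Rxrb fell by 0.57 (SE 0.18, adjusted p 0.0232) in F4/80high TAM and Rxrg rose by 0.93 (SE 0.25, adjusted p 0.0126). Both were lost with the slide as a block, at −0.65 (adjusted p 0.0803) and 0.60 (adjusted p 0.203). Rxrb also lost its call without PEC replicate 1 or 2 or F4/80high replicate 2 or 3, and Rxrg without PEC replicate 3 or F4/80high replicate 2.

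Of 19 LXR target genes tested of 24 listed, 4 were higher and 11 lower in F4/80low TAM (median −1.19). Of all genes 22.7% were higher and 29.2% lower there, with a median of −0.09, or −0.56 with median centring. In F4/80high TAM 4 were higher and 8 lower (median 0.02), against 25% and 28% of all genes. Between the subsets 7 were higher and 3 lower in F4/80high TAM (median 0.18), against 18.6% and 14%. Ch25h entered the test through TAM arrays and Cd5l through PEC arrays, so they add little to the counts against PEC. Lpl, lipoprotein lipase, fell by 6.77 (SE 0.18) in F4/80high and 5.04 (SE 0.18) in F4/80low TAM, and Smpdl3a, a phosphodiesterase induced by cholesterol, by 2.82 (SE 0.22) and 2.56 (SE 0.22). Scd2, a fatty acid desaturase, fell by 3.52 (SE 0.48) in F4/80high TAM and stood at −1.01 (adjusted p 0.108) in F4/80low TAM. Apoe, the apolipoprotein of cholesterol efflux, stood at 10.03 in PEC, 10.60 in F4/80high and 7.67 in F4/80low TAM and parted the subsets by 2.92 (SE 0.22). Ch25h, which makes the oxysterol 25-hydroxycholesterol, was 4.20 (SE 0.60) higher in F4/80high than in F4/80low TAM. Rgs1, a regulator of G protein signalling, was at −3.33 (SE 0.49) in F4/80low and −1.90 (adjusted p 0.01) in F4/80high TAM, both past the threshold. With the slide as a block 10 of the 19 passed in F4/80low TAM, 1 higher and 9 lower, and 9 within slide 1.

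**Figure D3:**
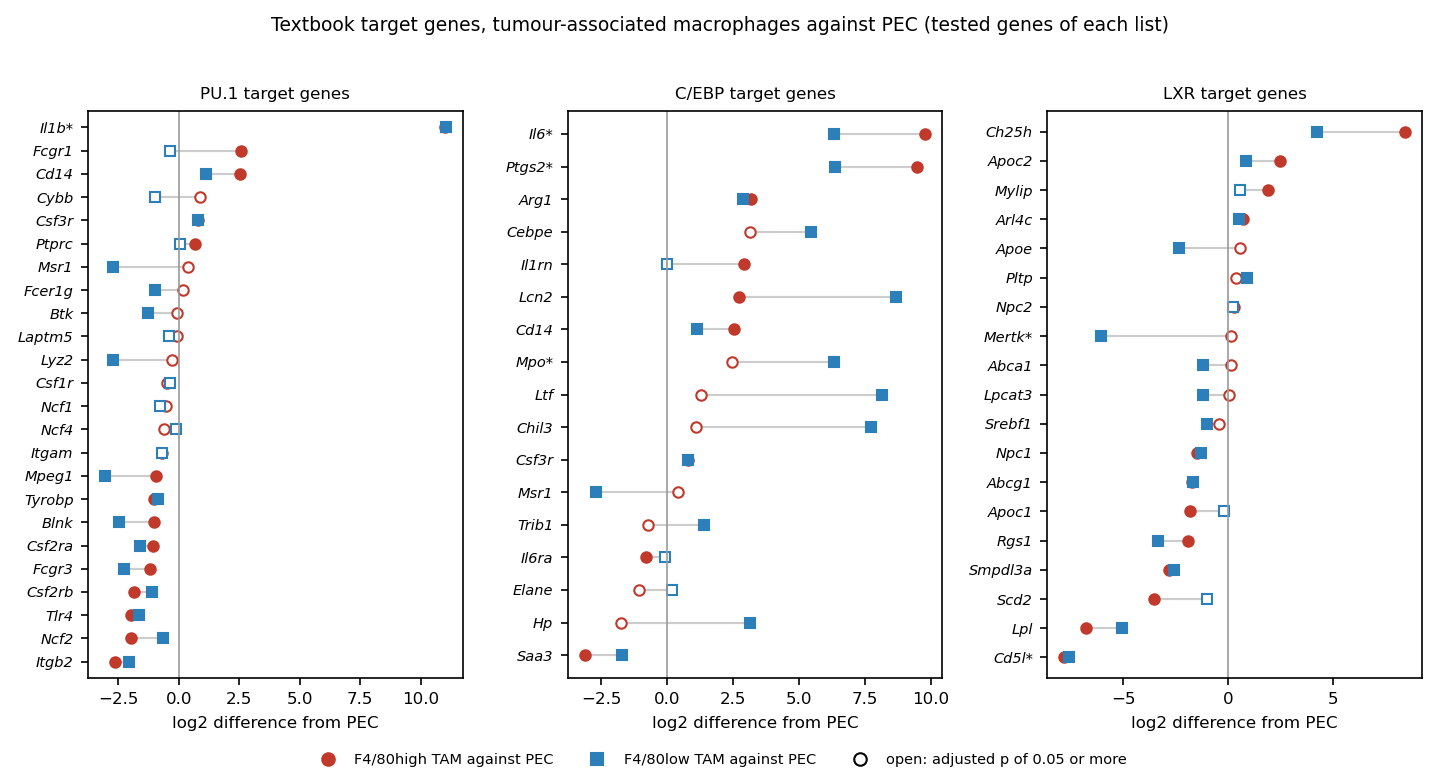
Log2 difference from PEC of the tested PU.1, C/EBP and LXR target genes in F4/80high (circles) and F4/80low TAM (squares), filled where adjusted p is below 0.05; an asterisk marks a gene above background on none of 3 arrays in a group of at least 1 comparison, whose value there is no measured fold. LXR targets such as Lpl (−6.77 and −5.04) fell in both subsets, while Apoe lay at 0.57 in F4/80high and −2.35 in F4/80low TAM.

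Klf4 rose a little in F4/80high TAM. Its probe at chr4:55540167-55540226 (mm9) read 1.14, 1.81 and 1.32 in PEC, 2.09, 2.22 and 2.67 in F4/80high and 1.61, 2.40 and 2.21 in F4/80low TAM. The F4/80high arrays lay above the PEC arrays, and the F4/80low arrays overlapped with both. The rise was 1.87-fold in F4/80high TAM (log2 0.90, SE 0.27, adjusted p 0.0202), and F4/80low TAM stood at 0.65 (SE 0.27, adjusted p 0.0718). The subsets differed by 0.25 (adjusted p 0.525). With the slide as a block the rise was 1.19 (adjusted p 0.0422). It was lost within slide 1 (adjusted p 0.054), with median centring, and on leaving out F4/80high replicate 3 (0.73) or, of the controls, replicate 1 (0.76) or 3 (0.85).

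In the KLF family 10 of 17 genes were tested, and 4 rose and 4 fell in F4/80high TAM while 1 rose and 4 fell in F4/80low TAM, against 25% and 28%, then 22.7% and 29.2%, of all genes. Klf2, a factor of quiescence in T cells and endothelium that restrains macrophage activation, rose by 1.78 (SE 0.32) and 2.80 (SE 0.32); the first did not pass within slide 1. Klf9 fell in F4/80low TAM by 2.77 (SE 0.43) and was at −5.25 in F4/80high TAM, above background there on 2 of 3 arrays. Klf10, induced by TGF-β, fell by 2.04 (SE 0.20) and 1.13 (SE 0.20; not past the threshold within slide 1), and Klf13 was at −1.42 (SE 0.23) in F4/80high and −0.65 (adjusted p 0.0366) in F4/80low TAM. The other 7 KLF genes were not above background on all 3 arrays of any group.

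**Figure D4:**
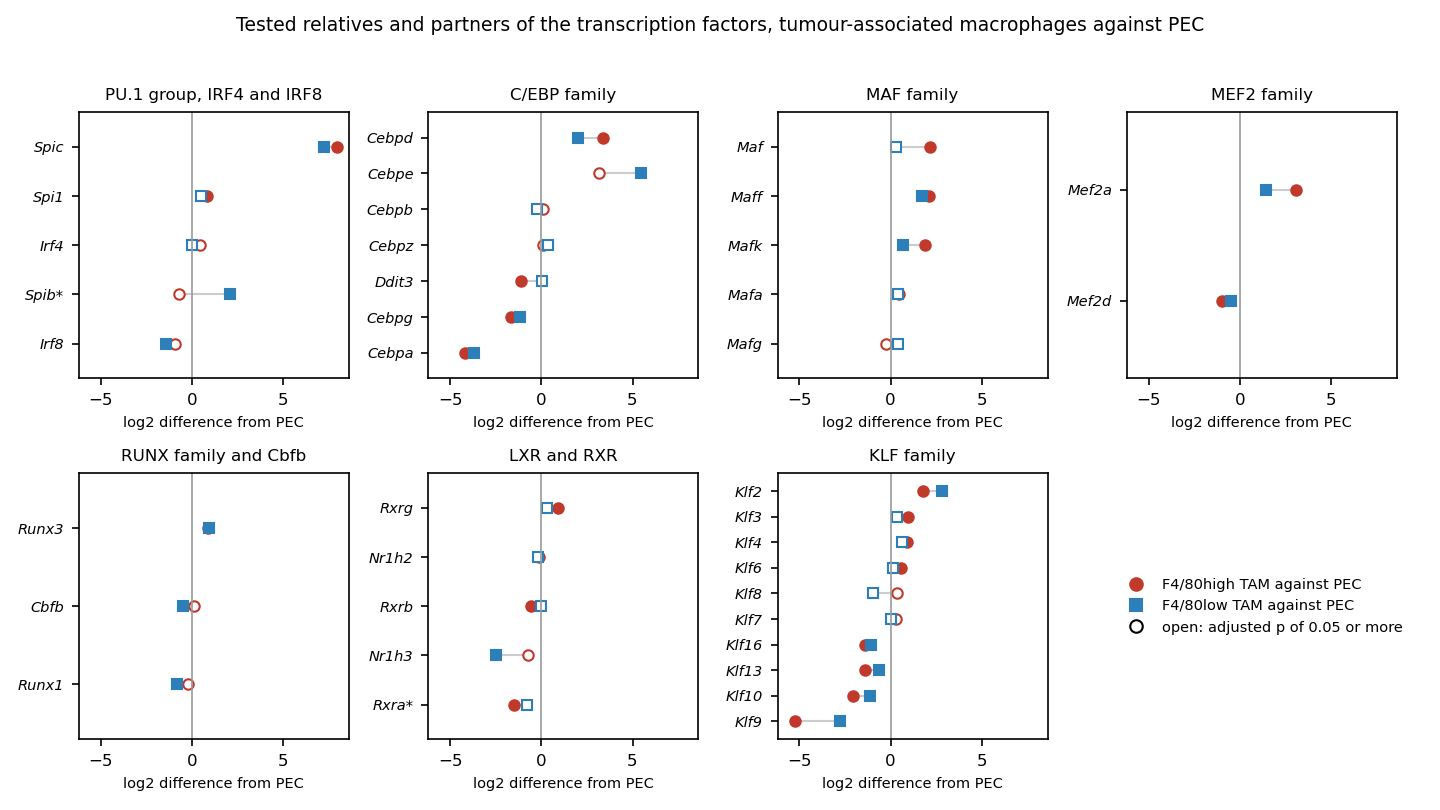
Log2 difference from PEC of tested relatives and partners of each transcription factor in F4/80high (circles) and F4/80low TAM (squares), filled where adjusted p is below 0.05; asterisks as in the plot of target genes. Within the C/EBP family the genes spread to both sides of 0, for example Cebpd at 3.40 and Cebpa at −4.19 in F4/80high TAM.

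Among 34 other transcription factors of macrophages and myeloid cells 11 were higher and 16 lower in F4/80high TAM, and 8 were higher and 14 lower in F4/80low TAM. Of all genes 25% and 28% were higher and lower in the first and 22.7% and 29.2% in the second. Egr1, Gfi1, Myb and Elf4 entered the test through TAM arrays, and Bhlhe41 and Gata6 through PEC arrays, so they add little to these counts. Egr2, an early growth response factor, changed by −5.98 (SE 0.44) and −4.76 (SE 0.44). Pparg, the fatty acid receptor of alveolar and alternatively activated macrophages, was at −4.98 (SE 0.33) in F4/80low and −2.72 (adjusted p 0.000141) in F4/80high TAM, lower in both, and stood 2.25 (SE 0.33) higher in F4/80high than in F4/80low TAM. Fli1, an ETS factor, was lower in both subsets, at −3.26 (SE 0.50) in F4/80high and −2.36 (adjusted p 0.00392) in F4/80low TAM. Etv6, an ETS repressor, was higher in both, by 2.99 (SE 0.18) and 0.80 (adjusted p 0.00485), and the subsets differed by 2.19 (adjusted p 4.42e-05). Zeb2, which keeps the identity of tissue macrophages, stood 1.93 (SE 0.18) higher in F4/80high than in F4/80low TAM. Nr4a1, an orphan receptor induced by stimulation, rose by 4.68 (SE 0.61) in F4/80low and 2.56 (adjusted p 0.00636) in F4/80high TAM. The list of tissue handling and stress genes had a mean level of 1.30 to 1.71 in PEC. In TAM it was 3.02 to 3.55 (F4/80high) and 3.13 to 3.25 (F4/80low). Its genes went both ways: Hspa1a rose by 6.79 and 6.28 and Ier3 by 5.46 and 3.97 in F4/80high and F4/80low TAM. Atf3 stood at −2.96 and −2.81 and Jund at −2.05 and −1.13, in the same order, and Jun at −1.53 in F4/80high TAM. The part of tissue handling and stress in Egr2, Nr4a1, Cebpd and the other inducible genes was not tested.

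Markers of several other cell types were above their PEC level in both TAM subsets, and fewer macrophages in a sample and less RNA of a gene in each cell cannot be told apart in bulk samples. The mean level of 15 macrophage identity genes was 3.82 to 4.25 in PEC, 4.23 to 4.79 in F4/80high and 2.11 to 2.38 in F4/80low TAM. Of 14 tested, 11 were higher and 0 lower in F4/80high than in F4/80low TAM, against 18.6% and 14% of all genes. Adgre1 is among the 11 and adds little to this count, since the subsets were separated by the F4/80 protein that it encodes. Mrc1, the mannose receptor, was higher by 4.72 (SE 0.33) and Aif1, the calcium-binding protein IBA1, by 3.90 (SE 0.29). Of the defining genes, Mertk was above background on all PEC and F4/80high arrays and on no F4/80low array. Cd163 was above background on no array of any group. Neutrophil markers were above background on all 3 F4/80low arrays for 11 of 11 genes, T cell markers for 10 of 12 and NK cell markers for 6 of 10, against 6, 3 and 1 on the F4/80high and 5, 5 and 2 on the PEC arrays. The mean T cell marker level was 0.46 to 1.75 in F4/80low, −3.03 to −2.82 in F4/80high and −2.49 to −2.19 in PEC. Monocyte markers had a mean level of 2.70 to 4.50 in F4/80low, −0.70 to 0.03 in F4/80high and −1.69 to −0.97 in PEC. In F4/80high TAM dendritic cell markers had a mean level of −1.07 to −1.05 and fibroblast and tumour cell markers of −2.63 to −2.20, against −2.42 to −2.25 and −3.33 to −3.21 in PEC, and −0.74 to 0.35 and −1.61 to −1.27 in F4/80low TAM. Fap, a fibroblast activation protease, was at least 43.2-fold above PEC in F4/80high and at least 6.26-fold in F4/80low TAM, and Kit, the mast cell and progenitor receptor, at least 2.34-fold and 9.89-fold. Of the other fibroblast markers, Col3a1 rose in both, at least 2.93-fold and 3.00-fold, calls lost with the slide as a block. Col1a1 fell in F4/80high TAM, where no array was above background, a call lost with normexp background correction. Col1a2 and Dcn passed no comparison, and Lum, Pdgfra, Pdgfrb and Postn were above background on no array. Zbtb46, a dendritic cell factor, was above background in F4/80high TAM alone, at least 13.9-fold above PEC. Flt3, Dpp4, Xcr1, Clec9a, Cd209a and Itgae of the same list were above background on no F4/80high array. Batf3 of that list fell by 2.08 in F4/80high and 2.27 in F4/80low TAM. Siglech rose by 0.75 in F4/80high TAM, a call lost with the slide as a block. Ccr7, of activated dendritic and T cells, was higher by 7.01 and 7.24, with 2 of 3 PEC arrays above background. In F4/80low TAM Flt3 of dendritic cells, Msln of mesothelium and Thy1 of T cells and fibroblasts, above background in no other group, were at least 10.9-fold, 10.9-fold and 50.5-fold above PEC. The other mesothelial markers, Upk3b, Upk1b, Krt19, Wt1 and Lrrn4, were above background on no array. Ccr3 of eosinophils was at least 17.2-fold above PEC in F4/80low and 5.75-fold in F4/80high TAM, and Tpsb2 of the same list rose in both. Siglecf of that list fell, at least 29.9-fold in F4/80high TAM and by 4.70 in F4/80low TAM, above background there on 1 of 3 arrays. Of the mast cell and eosinophil markers, Ms4a2, Fcer1a, Cma1 and Epx were above background on no array. No B cell marker was above background on all arrays of a group. The part of these cells in the levels of the transcription factors in either TAM subset was not tested.

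**Figure D5:**
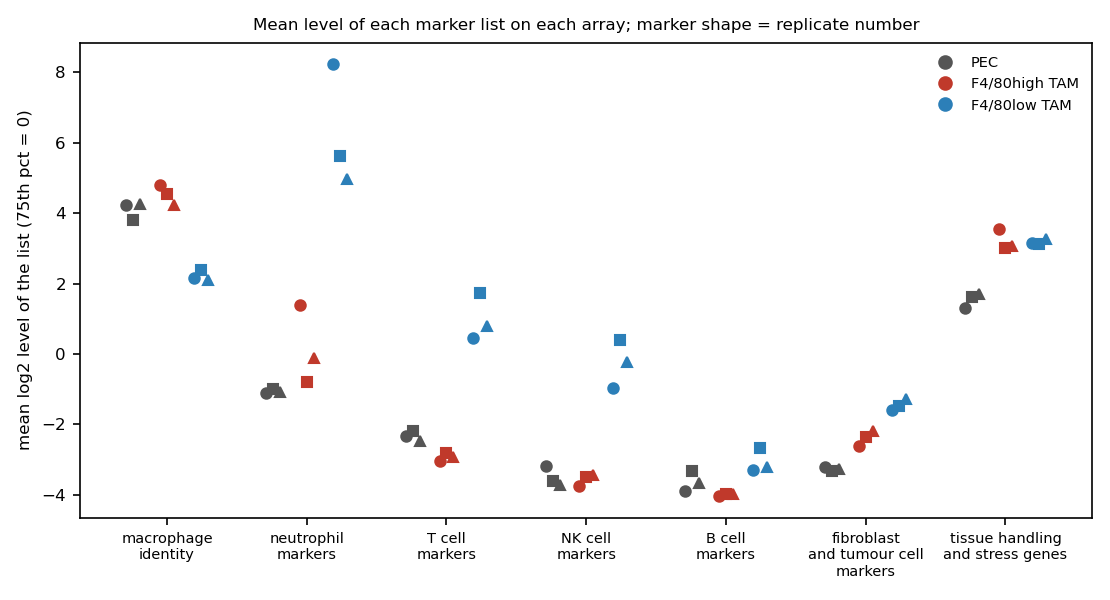
Mean log2 level of 7 marker lists on each of 9 arrays, by group (colour) and replicate number (shape). Macrophage identity genes reached 4.79 in F4/80high and at most 2.38 in F4/80low TAM, and neutrophil markers reached 8.24 on F4/80low replicate 1.

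The F4/80low arrays differed among themselves in these markers and in the transcription factors. Replicate 1 had the highest neutrophil level (8.24 against 5.62 and 4.96) and the highest Spi1, Cebpa, Cebpb and Cebpd of its group. Replicate 2 had the highest T cell level (1.75 against 0.46 and 0.80) and the highest Maf, Nr1h3 and Klf4; it was highest on the first Runx1 probe too, whereas replicate 1 was highest on the other. With 3 arrays this is a description. The difference between subsets stayed past the threshold for Cebpd, Maf and Nr1h3 without each of the 9 arrays in turn.

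Across the 9 arrays the transcription factors resembled different genes, given as a description: the arrays form 3 groups, so a high correlation follows from sharing the order of group means. Among 10984 named genes above background on all arrays, Cebpd lay closest to Cd38, an NAD-consuming ectoenzyme (Pearson r 0.992), Nfkb1, the p105 and p50 subunit of NF-κB (0.986), and Tnip1, an inhibitor of that pathway (0.986). Cebpa lay closest to Ppp2r5c, a regulatory subunit of protein phosphatase 2A (0.996), Tspan17 (0.996) and Mrps36 (0.995). Nr1h3 lay closest to Man2b1, the lysosomal α-mannosidase (0.991), Spout1 (0.989) and Ssh3 (0.986). Maf lay closest to Cep192, a centrosome protein (0.988), LOC100047419 (0.983) and Phf21a (0.982). Runx1 lay closest to Psmg3, a proteasome assembly chaperone (0.980), Mettl16 (0.960) and Ddx19b (0.955).

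Spi1 lay closest to Rnf145, an LXR-induced ubiquitin ligase (0.957), Gm9127 (0.950) and Desi1 (0.944), and Klf4 to Cpsf7 (0.961), 6820431F20Rik (0.952) and Brpf3 (0.948). Cebpb had the weakest neighbours, Ube2j2 (0.900), Cnih4 (0.899) and Rsbn1l (0.898). Among the transcription factors themselves the closest pair was Spi1 and Cebpd (0.934), and the most opposed were Cebpa and Cebpd (−0.902).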

How the data were processed

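Per the labels, total RNA of each sample was labelled with Cy3 and hybridised to an Agilent array, and the submitters' processing notes and file headers name Feature Extraction 10.5.1.1 with protocol GE1_105_Dec08. The authors deposited, per array, background-subtracted processed intensity per spot, and a value table in log2 units, used here as an alternative. From the intensities, log2 minus the array's 75th percentile was computed over non-control spots, leaving out 103 to 307 outlier-marked spots per array, and spots of a probe were averaged. A probe was kept if all 3 arrays of some group measured it well above background, and a gene took its brightest kept probe. limma 3.58.1 in R 4.3.3 was fitted to all 9 arrays, with Benjamini-Hochberg adjustment over 16459 genes and a threshold of 0.05. The script was tested on simulated data for F4/80high TAM against PEC. Of 100 genes changed by 1 log2 unit 34 were recovered, and of 100 changed by 2 units 72, with 10 false calls given for each size. Changes of 1 unit or less can thus be missed. The number of arrays limits the precision.

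A fold written "at least" sets the bright group's mean against, per dim array, the higher of the lowest signal well above background and the probe's own. Of 55681 probes, 26521 were named by accession. Same-numbered F4/80high and F4/80low arrays deviated together (r 0.233, 0.171 and 0.134), a hint from the data that the numbers pair them; PEC arrays did not pair. The genes and lists were chosen with earlier results of these data known. Named from each list were genes past the threshold with no overlap between arrays, at most the 3 largest per comparison, those above background in both groups first, and for likeness the 3 highest correlations. Alternatives were background correction, scaling, filter, probe rule, slide, replicate block, the deposited log2 table, outlier marks and each array left out. Protein identity between family members was not computed. One relative of the factors is not reported here.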

Additional observations from a re-analysis of the deposited data

Results flagged for a closer look

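For 3 transcription factors the change from PEC differed between the TAM subsets, and the test of that difference is the comparison of F4/80high with F4/80low TAM. Cebpd rose by 3.40 in F4/80high and 2.01 in F4/80low TAM, a difference of 1.39 (limma adjusted p 0.00494). Maf stood at 2.17 and 0.31, a difference of 1.85 (adjusted p 0.00705). Nr1h3 stood at −0.75 and −2.49, a difference of 1.73 (adjusted p 0.00182). The PEC arrays enter both changes and cancel in the difference. For all 3 genes the 3 arrays of F4/80high TAM lay above the 3 of F4/80low TAM.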

How the results depend on the processing

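Of 253 alternatives to called transcription factor results 239 kept the call and 14 lost it. Of 253 to results not called 218 stayed, 19 passed and 16 changed sign. The slide block and the fit within slide 1 count separately here, though both take differences from PEC on PEC replicate 1 alone. Cebpa and Cebpd against PEC, Nr1h3 in F4/80low TAM, and Cebpd (1.03 to 1.70), Maf (1.51 to 2.26) and Nr1h3 (1.42 to 2.05) between subsets passed in all. Signs turned for Cebpb in F4/80high TAM (normexp −0.14, quantile −0.10, median centring −0.069, deposited table −0.11, and −0.18 to 0.35 without 1 array), Cebpb in F4/80low TAM (slide block and within slide 1 0.29, and −0.51 to 0.016 without 1 array), Runx1 in F4/80high TAM (slide block and within slide 1 0.31) and Maf in F4/80low TAM (median centring −0.16, slide block and within slide 1 −0.18, mean of probes −0.15, and −0.10 to 0.56 without 1 array). Within slide 1, 2 of 8 transcription factors passed in F4/80high TAM. Over all genes 8732 passed in F4/80high TAM (5626 with the slide block, 4887 within slide 1) and 8540 in F4/80low TAM (4902 and 4123, and 14380 with no filter). Called targets fell within slide 1 from 14 and 16 to 9 and 9 for PU.1 and from 15 to 9 for LXR, C/EBP targets in F4/80low TAM from 14 to 9 with the slide block, within slide 1 or with genes above background on all arrays, and identity genes in F4/80high TAM from 7 to 4 with the slide block and within slide 1; these list counts were chosen after seeing the data. With the replicate block on the TAM arrays, which pairs same-numbered arrays, 3 transcription factors and 4877 genes passed, and over all 9 arrays it changed 1 call, Klf4 in F4/80low TAM (0.65, adjusted p 0.0412). The cause was not tested. Dim probes such as Mef2c give no fold.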
